A study of Parasteatoda tepidariorum with 12 samples.

Results

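The embryos described here are those whose *fuchi* transcript was lowered by parental RNAi (*fuchi* pRNAi), followed from stage 3 (20 h after egg laying, AEL) to early stage 5 (31 h AEL). They are 4 of the 12 libraries of the series, chosen by their labels and not by any measured value. Embryos of *Parasteatoda tepidariorum*, the common house spider, were pooled whole, 50 to 100 to a library, and their poly(A) RNA was sequenced. The replicates were 2 females, 29D and 29G, whose untreated eggs and later eggs, laid after injections of *fuchi* dsRNA, were both sampled at 3 stages. The *fuchi* pRNAi eggs came from the egg sacs of day 19 (29D, first replicate) and day 18 (29G, second replicate), so both stages of a female share a mother, an egg sac and a treatment. No dsRNA of an unrelated gene was in these libraries, and the untreated course, from eggs that the same females laid before the first injection, is given only as a reference. Pools of whole embryos hold every cell of the embryo, so that fewer cells of a type and less RNA per cell cannot be told apart.

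Early spider embryos live on RNA that the mother put into the egg, and this RNA is cleared while the genome of the embryo starts to be read. In *P. tepidariorum* this handover accompanies the gathering of cells into the germ disc, the sheet from which the body forms, with its rim, its centre (the blastopore and the cumulus, a group of signalling cells) and the surrounding endoderm. *fuchi* encodes a GATA-like zinc finger protein of a spider-specific group, and GATA factors act in endoderm formation in many animals. In parental RNAi the mother is injected and the targeted transcript is depleted in her eggs, and the comparison of early stage 5 with stage 3 addresses how the transcriptome moves on in embryos with little of it.

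In these libraries the knockdown rests on 1 dsRNA. For the phenotype of the embryos, the paper reports the same defects with dsRNAs from non-overlapping parts of the transcript. The ends of the stretch are shown here because they define the part of the *fuchi* transcript that was targeted. The gene primers of that stretch are printed 5′ to 3′ from the primer table of the study. The added tail that holds the EcoRI site is in lower case and the 22 gene bases in capitals. They hold no T7 promoter sequence, which the paper describes at both ends of its dsRNA templates.
forward: ggaattcGACATGTTCTCACCTATTTCCG
reverse: ggaattcTGTAATTGCCTTAAGTCCGATG

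Levels are given in CPM, counts scaled to library size with trimmed-mean (TMM) factors. The stage 3 levels of females 29D and 29G come first and those of early stage 5 after them. Log2 changes are early stage 5 over stage 3 and stand with their standard error (SE). A change is called where the Benjamini-Hochberg adjusted p of the edgeR quasi-likelihood test is under 0.01.

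The *fuchi* transcript (gene model g26874, scaffold 177, from 310446 to 328722 on the plus strand of the Ptep_1.0 assembly) was lowered in all *fuchi* pRNAi libraries, but it was not gone. It had 55.4 and 52.1 CPM at stage 3 against 123 and 110.0 CPM at early stage 5. Untreated embryos had 227 and 229 CPM at stage 3 against 276 and 308 CPM at early stage 5. At stage 2 the knockdown libraries had 13.3 and 5.87 CPM. Every knockdown library therefore lay under every untreated library of its stage, and in both females the level at early stage 5 was above that at stage 3. This increase had a log2 fold change of 1.11 ± 0.31 (SE, edgeR adjusted p = 0.014) and was not called. With the female as a block it was called (edgeR adjusted p = 0.00473), as it was by DESeq2 (adjusted p = 0.000754). The transcript of *catA* (g13984), the cell adhesion protein α-catenin, had 163 and 151, then 169 and 109.8 CPM, a log2 fold change of -0.17 ± 0.24 (SE, edgeR adjusted p = 0.637).

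The 4 libraries held 5662766 to 8857990 counts over 27990 gene models, so that 3 counts in a library stood for 0.339 to 0.530 CPM by library total, a floor that covers counting error alone. At stage 3 16898 and 16818 gene models had at least 1 count, and at early stage 5 15173 and 14639. The cytochrome c oxidase subunit 3-like transcript g20563, picked out after its values were seen, stood apart between the females, with 364 and 17393 CPM at stage 3 against 1638 and 17530 CPM at early stage 5, and it was not called. The log2 changes of the 2 females correlated with r = 0.90 over the 9277 gene models with a mean of at least 5 CPM, which describes these libraries and carries no test.

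From stage 3 to early stage 5 the transcriptome of the knockdown embryos was remodelled in both directions. Of 14498 gene models tested, 1173 were called higher (8.09%) and 1622 lower (11.2%) by the edgeR quasi-likelihood test. The shares of every gene group below are to be read beside these. The falls were deeper than the rises. The median fold change was 3.25 among the genes called higher and 5.38 among those called lower, and 34 and 434 genes, in that order, changed by at least 16-fold on the fitted scale. The genes called lower took 21.4% and 26.1% of all counts at stage 3 and 3.84% and 3.54% at early stage 5. The genes called higher took 20.2% and 17.1% and then 50.6% and 50.8%. Those shares describe genes that the same test selected. In every called gene both libraries of one stage lay on the same side of both libraries of the other, as they did in 66.8% of all gene models tested.

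Most of the changing transcripts were already detected in the embryos of stage 2, as were most gene models tested. Detection at that stage does not tell RNA of the mother from RNA made by the embryo. A level of at least 1 CPM in both knockdown libraries of stage 2 was found for 97.1% of the genes called lower, 86.96% of those called higher and 72.1% of all gene models tested. Only 7 of the genes called higher had no count in either library of stage 3, and 55 of those called lower had none at early stage 5.

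The size of both lists depended on the scaling and on single libraries. With library totals in place of TMM the median of all gene models moved from -0.08 to -0.54 on the log2 scale and the calls became 522 higher and 2610 lower, a share of 16.7% higher instead of 41.97%. On the deposited RPKM values the calls were 607 higher and 2321 lower (20.7% higher, limma with a pseudocount of 1) or 533 and 2526 (17.4%, pseudocount 0.1). Changes below are relative to the TMM centre. Without the second stage 3 library 423 genes were called higher and 988 lower, and without the first 797 and 1481. Without either early stage 5 library at most 581 genes were called higher, and 895 lower without the first and 924 without the second.

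**Figure D1:**
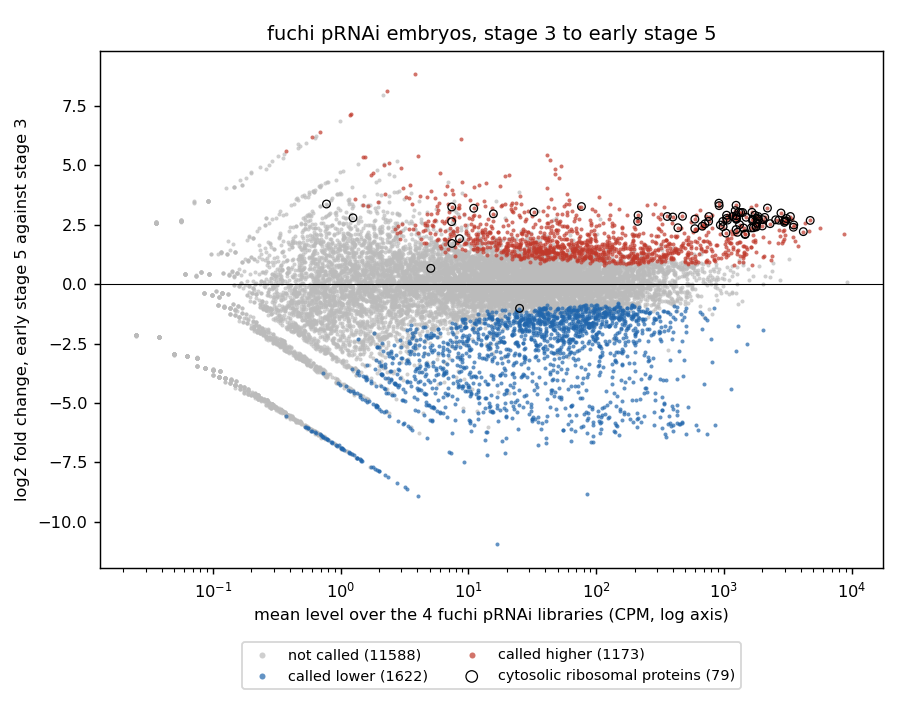
Log2 fold change of early stage 5 against stage 3 in *fuchi* pRNAi embryos (y axis) against the mean level over the 4 libraries (x axis, CPM, log axis), 1 point per gene model with a count in these libraries. Red and blue points passed the edgeR test (1173 higher and 1622 lower), and the cytosolic ribosomal proteins, drawn as open circles, lie together near a log2 change of 2.71.

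The clearest rise was that of the protein synthesis machinery. Cytosolic ribosomal proteins, which build the ribosomes, took 3.61% and 2.98% of all counts at stage 3 and 14.3% and 15.5% at early stage 5. Among them 72 of 79 tested members were called higher (91.1%) and 0 lower, and their median log2 change was 2.71 against -0.08 over all gene models tested, the value beside which the medians of the other groups are also to be read. At an unadjusted p under 0.05 the counts were 76 and 1, and DESeq2 called 73 and 0. The 40S protein S15-like (g21298) had 121 and 109 CPM at stage 3 against 781 and 887 CPM at early stage 5, a log2 fold change of 2.86 ± 0.22 (SE, edgeR adjusted p = 1.66e-06). The 60S protein L9 (g20716) had 175 and 163, then 1993 and 1347 CPM, and its change was 3.30 ± 0.26 (SE, edgeR adjusted p = 2.33e-06). Similar values were found for S4 (g14256), S16 (g6035), L5-A (g708), L15 (g6355), S3 (g8502), S2 (g17335) and S14a (g10376), whose log2 changes lay between 2.66 and 2.99. Not every entry moved this way. A further S11-like model (g1351) had 37.3 and 30.3, then 19.996 and 13.2 CPM (log2 change -1.02 ± 0.31, edgeR adjusted p = 0.0237), and it was called lower with the female as a block (edgeR adjusted p = 0.00616). A model for L26 (g19277) was present mainly in female 29D, with 6.88 and 0.151, then 25.995 and 1.12 CPM, and was not called (log2 change 1.91 ± 1.93, edgeR adjusted p = 0.483). With library totals 72 members were called higher and 1 lower.

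Protein folding and protein turnover rose in part. Of the chaperones 30 of 84 tested members were called higher (35.7%) and 5 lower (5.95%), with a median log2 change of 0.84. Both named subunits of the TCP-1 chaperonin, the ring that folds actin and tubulin, increased. The alpha subunit (g4663) had 221 and 185 CPM at stage 3 against 1259.5 and 1088 CPM at early stage 5 (log2 change 2.53 ± 0.23, edgeR adjusted p = 5.48e-06). The zeta subunit (g14778) had 234 and 189, then 1233 and 990.4 CPM (log2 change 2.39 ± 0.23, edgeR adjusted p = 8.42e-06). The mitochondrial heat shock 70 kDa protein F-like (g358), which helps to import and fold mitochondrial proteins, had 161 and 106, then 1165 and 1179 CPM (log2 change 3.13 ± 0.28, edgeR adjusted p = 5.67e-06). The 5 falls among the chaperones included those of a dnaJ subfamily C member 13 (g5200, log2 change -1.85 ± 0.28, edgeR adjusted p = 0.000331), another model of that name (g21723, log2 change -2.38 ± 0.41, edgeR adjusted p = 0.000853) and the inducible-type heat shock protein 70 B2 (g11686), which had 32.99 and 90.1, then 11.1 and 6.50 CPM (log2 change -2.77 ± 0.54, edgeR adjusted p = 0.00175). Without the second early stage 5 library the calls of g21723 and g11686 were lost (edgeR adjusted p = 0.0129 and 0.0236), and that of g11686 also without the first or without the second stage 3 library (0.0102 and 0.0219). Of the proteasome genes 12 of 48 tested members were called higher (25%) and 1 lower (2.08%), with a median of 0.70. Lid subunits 13 (g1302) and 11-like (g8105) of the 26S particle had log2 changes of 2.01 ± 0.25 (SE, edgeR adjusted p = 5.55e-05) and 1.94 ± 0.25 (SE, edgeR adjusted p = 8.46e-05). The proteasome activators went apart, with subunit 3 (g25995) at 242 and 240.1, then 782 and 651 CPM (log2 change 1.57 ± 0.24, edgeR adjusted p = 0.000314) and subunit 4 (g25442) at 133 and 164, then 43.1 and 42.3 CPM (log2 change -1.80 ± 0.27, edgeR adjusted p = 0.000267).

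Mitochondrial genes rose in part. Citrate synthase (g11416), which feeds acetyl-CoA into the citric acid cycle, had 80.03 and 66.02 CPM at stage 3 against 603 and 536 CPM at early stage 5, a log2 fold change of 2.96 ± 0.23 (SE, edgeR adjusted p = 1.96e-06). In the respiratory chain and ATP synthase group 18 of 66 tested members were called higher (27.3%) and 0 lower, with a median of 0.84. At an unadjusted p under 0.05 the counts were 40 and 0, and DESeq2 called 24 and 0. The ATP synthase lipid-binding protein (g26162), part of the rotating ring of the enzyme, had 595 and 605, then 2204 and 1889.6 CPM (log2 change 1.77 ± 0.24, edgeR adjusted p = 0.000138). Cytochrome b-c1 subunit 1 (g5769) and the small membrane anchor of succinate dehydrogenase (g5267) had log2 changes of 1.38 ± 0.22 (SE, edgeR adjusted p = 0.000448) and 1.42 ± 0.24 (SE, edgeR adjusted p = 0.000728). Cytochrome c oxidase subunit 6A1 (g14813) had 390.3 and 352, then 1064 and 803 CPM and was not called (edgeR adjusted p = 0.0194). It was called with the block (edgeR adjusted p = 0.004) and by DESeq2 (adjusted p = 0.00182). Of the mitochondrial ribosomal proteins 14 of 70 tested members were called higher (20%) and 0 lower, or 24 and 0 with the female as a block and 27 and 0 with DESeq2, and 43 and 1 had an unadjusted p under 0.05. Their median was 0.81. S10 (g12379) had 19.04 and 11.96, then 49.7 and 55.8 CPM (log2 change 1.76 ± 0.28, edgeR adjusted p = 0.000481). L39 (g25014) had 219 and 146, then 141 and 134 CPM and was not called (log2 change -0.41 ± 0.27, edgeR adjusted p = 0.28). Chaperones, the proteasome, the respiratory chain and mitochondrial ribosomal proteins kept a positive median under each scaling tried, but their calls did not hold to the same extent. With library totals 20 chaperones were called higher and 10 lower, 5 and 1 of the proteasome, 4 and 0 of the respiratory chain and 3 and 2 of the mitochondrial ribosomal proteins. On RPKM with a pseudocount of 0.1 these counts were 20 and 10, 5 and 1, 4 and 1, and 6 and 4.

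Single genes outside these groups had larger fold changes. The smallest p of any rise belonged to a triadin-like gene (g6466, scaffold 764, from 70526 to 213434 on the plus strand). Triadin is a calcium store protein of vertebrate muscle. The spider gene had 2.59 and 1.82 CPM at stage 3 against 87.6 and 81.8 CPM at early stage 5, 37.6-fold higher at the later stage (log2 fold change 5.23 ± 0.37, edgeR adjusted p = 1.19e-06). A transferrin-like gene (g26148), of the family that carries iron, had 4.09 and 3.33, then 96.98 and 87.4 CPM (log2 change 4.62 ± 0.37, edgeR adjusted p = 2.29e-06). Teneurin-m (g11824), a large cell surface protein known from *Drosophila* for matching cells to one another, had 9.27 and 8.93, then 96.4 and 73.3 CPM (log2 change 3.22 ± 0.28, edgeR adjusted p = 4.24e-06). The histone chaperone nucleosome assembly protein 1-like 1 (g13912) had 301 and 219, then 2126 and 1825 CPM (log2 change 2.92 ± 0.25, edgeR adjusted p = 3.43e-06). Among the genes without a described product the smallest p belonged to g471, g5, g11765, g9571 and g6968. Of these g11765 rose most, with 3.19 and 3.48, then 147 and 60.04 CPM (log2 change 4.95 ± 0.47, edgeR adjusted p = 7.74e-06), and the first female was the higher one at early stage 5.

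The falls with the smallest p, a choice that favours abundant transcripts and large changes, include the following genes. An ABHD11-like gene (g23929), named after a hydrolase of mammalian mitochondria, had 736 and 836 CPM at stage 3 against 12.6 and 8.96 CPM at early stage 5, 72.2-fold lower (log2 fold change -6.17 ± 0.33, edgeR adjusted p = 2.63e-07). Its model overlaps 2 others, so its own share of the reads is uncertain. Zinc finger protein 1-like (g6237) had 608 and 828, then 10.1 and 14.8 CPM (log2 change -5.86 ± 0.31, edgeR adjusted p = 2.63e-07). Bromodomain-containing protein 2 (g13141), which binds acetylated histones, had 669.9 and 1023, then 13.997 and 15.9 CPM (log2 change -5.83 ± 0.31, edgeR adjusted p = 2.63e-07). In each of these genes both early stage 5 libraries lay far under both stage 3 libraries, and the females were close to each other. The choice itself required stages that do not overlap and favours a small spread between females.

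Several enzymes and transporters were among the falls with the smallest p. Monocarboxylate transporter 12-like (g9963) had 751 and 916 CPM at stage 3 against 26.3 and 22.2 CPM at early stage 5 (log2 change -5.10 ± 0.29, edgeR adjusted p = 3.22e-07). The phosphoinositide phosphatase myotubularin-related protein 14 (g27978) had 619 and 958, then 9.998 and 15.9 CPM (log2 change -5.94 ± 0.36, edgeR adjusted p = 5.5e-07). Acetylcholinesterase-1-like (g6760), of the family that breaks down acetylcholine, had 709 and 1133, then 16.7 and 15.5 CPM (log2 change -5.83 ± 0.37, edgeR adjusted p = 6.1e-07). Fatty acyl-CoA reductase 1-like (g26758), which makes fatty alcohols, had 86.1 and 108, then 1.57 and 2.91 CPM (log2 change -5.49 ± 0.35, edgeR adjusted p = 6.1e-07). Diacylglycerol O-acyltransferase 1 (g15562), which completes triglycerides, had 413 and 572, then 27.7 and 35.6 CPM (log2 change -3.96 ± 0.26, edgeR adjusted p = 6.97e-07). A synaptonemal complex protein 3-like gene (g5144), named after a protein of meiotic chromosomes in vertebrates, had 43.7 and 52.99, then 1.14 and 1.79 CPM (log2 change -5.07 ± 0.33, edgeR adjusted p = 6.97e-07). The other described genes with the smallest p were another ABHD11-like gene (g3607), extensin-like (g13420), papilin (g4726) and the uro-adherence factor A models g10890 and g7019, with log2 changes from -5.93 to -3.96. The undescribed g10345, g11980, g17931, g9251 and g5411 fell as well, g10345 with the largest log2 change of them (log2 change -6.20 ± 0.31, edgeR adjusted p = 2.63e-07).

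Among regulators of maternal RNA and of the germline more falls than rises were called. In this group 5 of 49 tested members were called higher (10.2%) and 16 lower (32.7%), with a median of -0.72, and with library totals 1 was called higher and 24 lower. The deadenylase subunit CCR4-NOT 6-like (g27048), which shortens poly(A) tails, had 396 and 519 CPM at stage 3 against 66.4 and 43.01 CPM at early stage 5 (log2 change -3.06 ± 0.29, edgeR adjusted p = 8.42e-06). Cytoplasmic polyadenylation element-binding protein 1-B (g12413), which controls translation of stored mRNA, had 102 and 148, then 40.4 and 34.5 CPM (log2 change -1.73 ± 0.24, edgeR adjusted p = 0.000131). An argonaute-4-like gene (g12799), of the small RNA effector family, had 408 and 572, then 114 and 139 CPM (log2 change -1.95 ± 0.26, edgeR adjusted p = 0.000117), and its neighbours carry the same description, so its reads may be shared. Members called higher included DAZ-associated protein 2 (g3584, log2 change 2.39 ± 0.36, edgeR adjusted p = 0.000254), pumilio homolog 3-like (g5231, log2 change 1.26 ± 0.26, edgeR adjusted p = 0.00261) and piwi-like protein 1 (g11104), the piRNA binding protein, with 1143 and 1391, then 2759.6 and 2978 CPM (log2 change 1.18 ± 0.27, edgeR adjusted p = 0.00506). The calls of g5231 and g11104 were lost without any one of the 4 libraries (edgeR adjusted p 0.0126 to 0.045) and with library totals (0.0254 and 0.0396). Tudor domain-containing protein 1 (g2858) had 825 and 724, then 884 and 896 CPM and was not called (log2 change 0.20 ± 0.29, edgeR adjusted p = 0.635).

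Histones and cell cycle genes moved both ways. Of the histones 3 of 21 tested members were called higher (14.3%) and 5 lower (23.8%), with a median of 0.29 that became -0.18 with library totals. Histone H3.1 (g12364) had 270.5 and 546 CPM at stage 3 against 7.71 and 11.6 CPM at early stage 5 (log2 change -5.41 ± 0.41, edgeR adjusted p = 1.6e-06) and late histone H2B.L4-like (g422) had 95.4 and 277, then 1.86 and 5.15 CPM (log2 change -5.81 ± 0.57, edgeR adjusted p = 1.01e-05). Histone H2B (g17398) had 2653 and 2530.4, then 594 and 305 CPM (log2 change -2.53 ± 0.35, edgeR adjusted p = 0.000137). An H1.M6.2-like linker histone (g10574) had 40.1 and 40.7, then 134 and 123 CPM (log2 change 1.67 ± 0.25, edgeR adjusted p = 0.000291). Smaller rises were those of histone H2A (g7601, log2 change 1.19 ± 0.23, edgeR adjusted p = 0.00198) and histone H3.3 (g9473, log2 change 0.93 ± 0.23, edgeR adjusted p = 0.00795). Both were not called with library totals (edgeR adjusted p = 0.0291 and 0.134), without either early stage 5 library or without the second stage 3 library, H3.3 also not without the first, with adjusted p up to 0.0282 and 0.0735. Poly(A) selection retains histone mRNA only where it is polyadenylated, and near-identical histone copies can share reads. Of the cell cycle and DNA replication genes 14 of 127 tested members were called higher (11.02%) and 14 lower (11.02%), or 3 and 30 with library totals, shares near those of all gene models, with a median of -0.08. Cyclin-dependent kinase 9 (g4671), which releases paused RNA polymerase II, had 4.88 and 1.82, then 37.9 and 33.6 CPM (log2 change 3.37 ± 0.44, edgeR adjusted p = 9.23e-05). The Mediator kinase cyclin-dependent kinase 8 (g21134) had 236 and 283, then 35.1 and 36.7 CPM (log2 change -2.85 ± 0.24, edgeR adjusted p = 3.78e-06). Cyclin-E1 (g7775), which drives entry into S phase, had 624 and 549, then 216 and 123 CPM (log2 change -1.79 ± 0.27, edgeR adjusted p = 0.000329). Condensin-2 subunit G2 (g3287) and DNA polymerase epsilon subunit 2-like (g4031) had log2 changes of 2.14 ± 0.37 (SE, edgeR adjusted p = 0.00073) and 2.10 ± 0.40 (SE, edgeR adjusted p = 0.00163), calls that were lost for g3287 without the first early stage 5 library (edgeR adjusted p = 0.012) and for g4031 without any one library (up to 0.0154). On RPKM that of g3287 was lost as well (limma adjusted p = 0.0251 and 0.0124 with pseudocounts of 1 and 0.1).

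**Figure D2:**
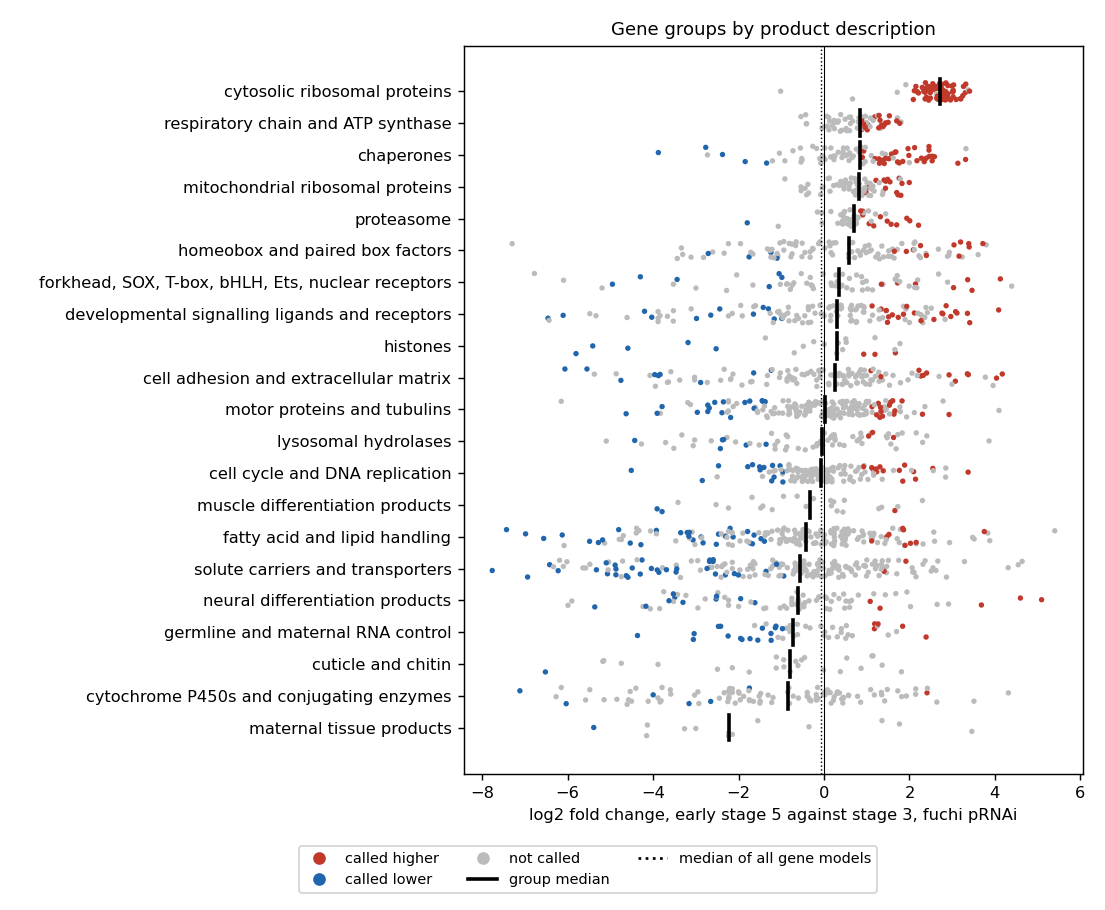
Log2 fold change of early stage 5 against stage 3 in *fuchi* pRNAi embryos (x axis) for gene groups defined by product description (y axis), 1 point per gene model, coloured by the edgeR call. The bar is the group median and the dotted line the median of all gene models; 72 of 79 cytosolic ribosomal proteins were called higher and 34 of 191 solute carriers and transporters lower.

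Several patterning genes of the germ disc rose in the knockdown embryos, 3 of 4 signals and 3 of 8 factors, against 8.09% of all gene models. None was called lower. At an unadjusted p under 0.05 3 signals and 6 factors were higher and 0 lower, and DESeq2 called 3 and 3 higher. Of the signals, *Pt-hh* (g4322), the Hedgehog ligand of the rim, had 17.4 and 17.6 CPM at stage 3 against 108 and 133 CPM at early stage 5, a log2 fold change of 2.78 ± 0.36 (SE, edgeR adjusted p = 8.16e-05). *Pt-dpp* (g16926), the BMP-type ligand of the cumulus region, had 9.67 and 14.2, then 96.98 and 43.9 CPM (log2 change 2.57 ± 0.49, edgeR adjusted p = 0.00151), and the first female was the higher one. *Pt-Delta* (g25248), the Notch ligand, had 53.9 and 32.1, then 134 and 128 CPM (log2 change 1.60 ± 0.35, edgeR adjusted p = 0.00372). *Pt-sog* (g23966), which antagonizes BMP signals, had 69.9 and 123, then 229 and 88.9 CPM, so that it was higher in one female and lower in the other, and it was not called (log2 change 0.72 ± 0.49, edgeR adjusted p = 0.29). The groups of libraries did not overlap for the first 3 and overlapped for *Pt-sog*.

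The transcription factors were split. *Pt-msx1* (g15189), a homeobox factor, had 5.98 and 2.12 CPM at stage 3 against 66.4 and 20.8 CPM at early stage 5 (log2 change 3.40 ± 0.67, edgeR adjusted p = 0.002). *Pt-prd2* (g18397), a paired box factor, had 0.997 and 0.757, then 17.6 and 6.94 CPM (log2 change 3.77 ± 0.67, edgeR adjusted p = 0.00093). *Pt-otd* (g9172), the Orthodenticle homeobox factor of the rim, had 4.58 and 2.42, then 80.98 and 12.8 CPM (log2 change 3.72 ± 0.93, edgeR adjusted p = 0.0084). These 3 were called higher, each to a lower level in female 29G. *Pt-fkh* (g6985), the Forkhead factor of the rim, the mesoderm and the peripheral endoderm, had 11.8 and 13.2, then 76.1 and 83.8 CPM, higher in both females but not called (log2 change 2.68 ± 0.72, edgeR adjusted p = 0.0121), and called with the female as a block (edgeR adjusted p = 0.000596). *Pt-BarH1* (g8250) had 154 and 167, then 279.7 and 330.4 CPM (log2 change 0.93 ± 0.29, edgeR adjusted p = 0.0266). *Pt-lab1* (g7954), a labial-type Hox gene, had 137 and 80.4, then 341 and 192 CPM (log2 change 1.30 ± 0.54, edgeR adjusted p = 0.0864). *Pt-Ets4* (g4238), a factor of the cumulus, had 71.95 and 65.3, then 102 and 105 CPM (log2 change 0.59 ± 0.53, edgeR adjusted p = 0.425). *Pt-twi* (g14287), the Twist factor of the mesoderm, had 24.2 and 12.4, then 13.4 and 8.96 CPM (log2 change -0.71 ± 0.49, edgeR adjusted p = 0.299). None of these 4 was called by edgeR, while DESeq2 called *Pt-BarH1* (adjusted p = 0.00608) and not *Pt-otd* (0.0209). By the place they mark, 2 of 3 rim markers, 1 of 4 cumulus and blastopore markers, 0 of 3 endoderm markers and 0 of 2 mesoderm markers were called higher and 0 lower. DESeq2 called 1, 1, 1 and 0, and 3, 1, 1 and 1 were higher at an unadjusted p under 0.05, with 1 endoderm marker lower. The endoderm list held only *Pt-GATA4*, *Pt-GATA5* and *fuchi*, and its rise was *fuchi* itself. *Pt-fkh* counts for rim and mesoderm, and *Pt-twi* for mesoderm and cumulus. Although also a factor of the peripheral endoderm, *Pt-fkh* was not counted there, and its level was higher in both females. The endoderm count therefore depends on the make-up of the list. Levels of whole embryos give no place, and the paper reports that circular *Pt-hh* and *Pt-otd* patterns were lacking after the knockdown. Rim markers summed to 33.8 and 33.2, then 265 and 230 CPM, against 110 and 121, then 522 and 467 CPM in untreated embryos.

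The patterning calls rested on few libraries. Of the 6 called genes *Pt-hh* alone stayed called without any one library (edgeR adjusted p 0.000509 to 0.00159). Without the first early stage 5 library the edgeR adjusted p were 0.0222 for *Pt-Delta*, 0.0214 for *Pt-dpp*, 0.183 for *Pt-otd*, 0.0331 for *Pt-msx1* and 0.0144 for *Pt-prd2*. Without the second stage 3 library those of *Pt-Delta*, *Pt-otd*, *Pt-msx1* and *Pt-prd2* were 0.0459, 0.0723, 0.0252 and 0.0137. Without the first stage 3 library *Pt-dpp* and *Pt-otd* were lost (0.0178 and 0.0317), and without the second early stage 5 library *Pt-Delta* (0.0199). With library totals the calls of *Pt-Delta* and *Pt-otd* were lost (edgeR adjusted p = 0.0261 and 0.0159), while all 6 log2 changes stayed positive under each scaling tried. On RPKM, tested with limma, *Pt-Delta* (0.0183 and 0.0522 with pseudocounts of 1 and 0.1), *Pt-otd* (0.0392 and 0.0968) and *Pt-dpp* (0.0156 and 0.0123) were not called, nor was *Pt-msx1* with the smaller pseudocount (0.0131). The calls that passed every scaling were those of *Pt-hh* and *Pt-prd2*.

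**Figure D3:**
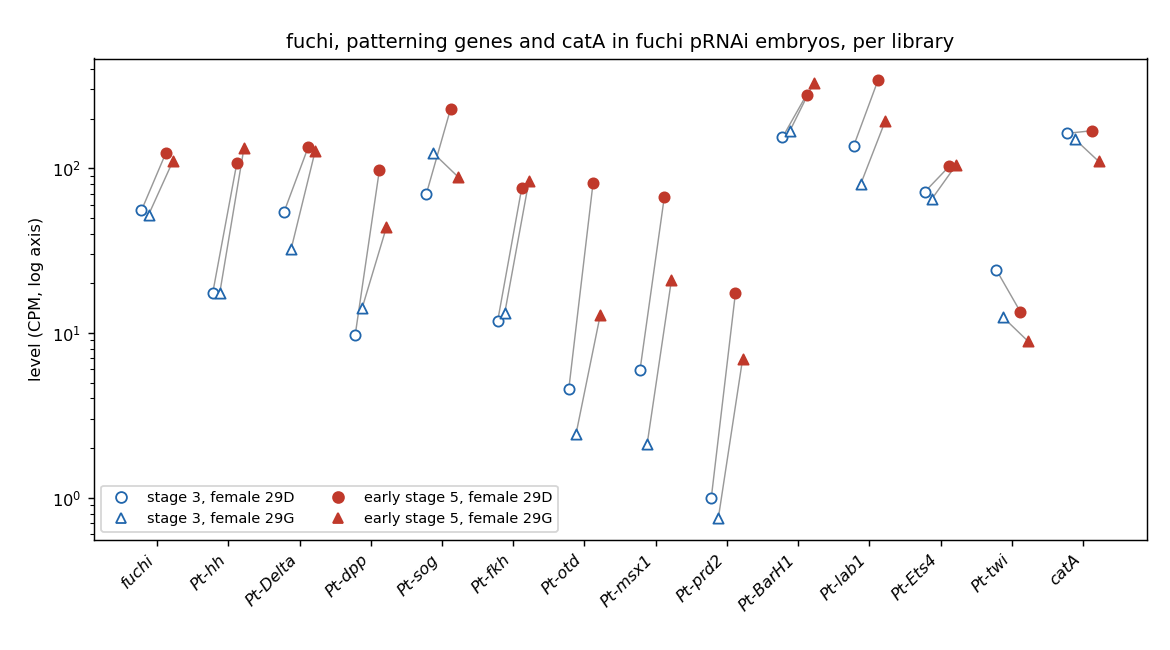
Level (y axis, CPM, log axis) of *fuchi*, 12 patterning genes and *catA* (x axis) in each *fuchi* pRNAi library. Open blue symbols are stage 3 and filled red symbols early stage 5, circles are female 29D and triangles female 29G, and a line joins the libraries of a female; *Pt-sog* goes up in 29D and down in 29G.

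The other members of the GATA family stayed low or near the floor. Of 8 members, *fuchi* included, 0 were called by edgeR, 2 had an unadjusted p under 0.05, and DESeq2 and the block each called *fuchi* alone. *Pt-GATA5* (g8337) had 2.69 and 5.15 CPM at stage 3 against 0 and 2.02 CPM at early stage 5 (log2 change -2.12 ± 0.96, edgeR adjusted p = 0.109). *Pt-GATA1* (g20514), a marker of the dorsal germ disc, had 3.09 and 6.66, then 3.57 and 1.57 CPM (log2 change -0.84 ± 0.70, edgeR adjusted p = 0.395). *Pt-GATA4* (g25261), a marker of the endoderm, had 7 and 5 counts at stage 3 against 2 and 0 counts at early stage 5, whereas untreated embryos went from 1.78 and 0.323 CPM to 36.98 and 47.6 CPM. The difference between these courses was -7.25 ± 1.32 on the log2 scale and was called only with the female as a block (edgeR adjusted p = 0.0232 without it and 0.00348 with it). *Pt-GATA2* (g1834), *Pt-GATA3* (g8336), *Pt-GATAL1* (g26871) and *Pt-GATAL2b* (g26875) were between 0.0997 and 4.48 CPM in the 4 libraries. The 10 genes that the study ranked highest at stage 3 on these same libraries, which is no independent choice, also stayed low, with 0 of 10 called in the knockdown course by edgeR or DESeq2 (2 with an unadjusted p under 0.05) and 5 of 10 called higher in the untreated one. Of these g17950, described as holotricin-3-like, had 2.09 and 6.21, then 0.714 and 0.224 CPM (log2 change -2.90 ± 0.98, edgeR adjusted p = 0.0375), and g132 had 0 counts in all 4 libraries.

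Genes that the study ranked as candidates for local expression at stage 3, from isolated cells, held few calls. The places given below are those of that ranking. Staining in the paper gave no specific signal for group P or for members of group CP other than *fuchi*. Some members of group C were also seen on the side opposite to the germ disc. Of the 10 of screen group C (centre of the germ disc) and the 5 of group P (periphery) 0 were called higher or lower by edgeR or DESeq2, with 1 member of each at an unadjusted p under 0.05. Their log2 changes ran from -1.43 to 2.00 in group C and from -1.91 to 0.21 in group P. In group CP (both places), which also holds *fuchi*, 2 of 4 were called lower and 0 higher (1 higher with DESeq2, which was *fuchi*, as at an unadjusted p under 0.05). The undescribed g18041 had 20.2 and 11.5 CPM at stage 3 against 1.57 and 1.34 CPM at early stage 5 (log2 change -3.42 ± 0.63, edgeR adjusted p = 0.00124). Zinc finger protein 271-like (g4752) had 50.8 and 56.3, then 20.7 and 23.7 CPM (log2 change -1.27 ± 0.25, edgeR adjusted p = 0.00203). Both calls were lost without either early stage 5 library, and that of g4752 also without the second stage 3 library, with edgeR adjusted p up to 0.0172 and 0.0263. The tubulin alpha-1A model g1904 of this group had 1.89 and 0.757, then 11.1 and 0.448 CPM, 1 library high out of 4, and was not called (log2 change 2.11 ± 1.33, edgeR adjusted p = 0.25).

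Transcription factor families held rises and falls side by side. Of the homeobox and paired box factors 11 of 100 tested members were called higher (11%) and 4 lower (4%), beside 8.09% and 11.2% of all gene models. Their median of 0.57 turned to -0.01 on RPKM with a pseudocount of 0.1. With library totals 7 were called higher and 6 lower, and on RPKM 9 and 7 (pseudocount 1) or 7 and 8 (pseudocount 0.1). Extradenticle (g20631), a partner of Hox proteins, had 20.7 and 16.7 CPM at stage 3 against 191 and 144 CPM at early stage 5 (log2 change 3.16 ± 0.33, edgeR adjusted p = 1.66e-05). The engrailed-like homeobox gene (g15243) had 13.4 and 7.87, then 115 and 109.5 CPM (log2 change 3.39 ± 0.40, edgeR adjusted p = 4.31e-05). A POU domain class 2 factor (g13365) had 5.88 and 3.63, then 39.99 and 39.4 CPM (log2 change 3.04 ± 0.37, edgeR adjusted p = 4.88e-05). Zinc finger homeobox protein 3-like (g11268) fell, with 713 and 851, then 307 and 156 CPM (log2 change -1.75 ± 0.37, edgeR adjusted p = 0.00288), a call that was lost without the second library of either stage (edgeR adjusted p = 0.0214 and 0.0321). Of the forkhead, SOX, T-box, bHLH, Ets and nuclear receptor genes 7 of 64 tested members were called higher (10.9%) and 6 lower (9.38%), shares near those of all gene models. With library totals these counts were 3 and 10, and the median moved from 0.35 to -0.11. The ETS factor Elk-1 (g9766), a target of MAP kinase signalling in vertebrates, had 48.1 and 53.6, then 613 and 433 CPM (log2 change 3.36 ± 0.35, edgeR adjusted p = 1.75e-05). A HES-1-A-like gene (g17723), of the family of Notch-responsive repressors, had 1.99 and 1.82, then 40.99 and 26.2 CPM (log2 change 4.13 ± 0.58, edgeR adjusted p = 0.000218). Forkhead box N4-like (g19784) had 144 and 234, then 18.1 and 16.6 CPM (log2 change -3.44 ± 0.33, edgeR adjusted p = 9.74e-06). Achaete-scute homolog 1a (g27206), of the proneural family, had 31.7 and 57.7, then 1.14 and 1.79 CPM (log2 change -4.95 ± 0.53, edgeR adjusted p = 2.03e-05). These named factors kept their direction under each scaling tried.

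Among signalling ligands and receptors 21 of 125 tested members were called higher (16.8%) and 12 lower (9.60%), beside 8.09% and 11.2% of all gene models. With library totals these counts were 10 and 19, and the median moved from 0.31 to -0.16. Beside *Pt-hh*, the rises with the smallest p were an inhibitory Smad, mothers against decapentaplegic homolog 6 (g5567), with 3.29 and 6.06 CPM at stage 3 against 40.99 and 37.2 CPM at early stage 5 (log2 change 3.08 ± 0.38, edgeR adjusted p = 6.37e-05), and the Wnt antagonist secreted frizzled-related protein 5 (g4876), with 8.87 and 6.21, then 65.8 and 44.1 CPM (log2 change 2.86 ± 0.37, edgeR adjusted p = 8.73e-05). Bone morphogenetic protein 10-like (g16925), next to *Pt-dpp* in gene model number, went the other way, with 161 and 269.8, then 1.86 and 4.70 CPM (log2 change -6.11 ± 0.47, edgeR adjusted p = 1.96e-06). The Notch receptor (g27737) had 456 and 335, then 854 and 485 CPM and was not called (log2 change 0.76 ± 0.30, edgeR adjusted p = 0.0724). The list also holds serrate RNA effector molecule (g5067), an RNA processing factor and no ligand (log2 change 0.63 ± 0.21, edgeR adjusted p = 0.0354).

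Adhesion molecules and the extracellular matrix changed in both directions. In this group 12 of 118 tested members were called higher (10.2%) and 9 lower (7.63%), beside 8.09% and 11.2% of all gene models. With library totals these counts were 6 and 14, and the median moved from 0.25 to -0.21. A fat-like cadherin (g7567), of the family that orients cells in sheets, had 26.6 and 19.2 CPM at stage 3 against 259 and 212 CPM at early stage 5 (log2 change 3.35 ± 0.34, edgeR adjusted p = 1.28e-05). Fasciclin-2 (g11491), an immunoglobulin-type adhesion protein, had 244 and 172, then 1064 and 943 CPM (log2 change 2.27 ± 0.26, edgeR adjusted p = 3.16e-05). Neural cell adhesion molecule 2 (g15331) had 17.2 and 10.3, then 104 and 130.2 CPM (log2 change 3.07 ± 0.42, edgeR adjusted p = 0.000127). The matrix glycoprotein papilin fell in both named models, g4726 (307 and 377, then 23.1 and 20.6 CPM) and g4424 (806 and 651, then 15.997 and 15.01 CPM), with log2 changes of -3.96 ± 0.26 (SE, edgeR adjusted p = 6.97e-07) and -5.55 ± 0.52 (SE, edgeR adjusted p = 7.11e-06). A thrombospondin-type metalloproteinase of the ADAMTS family (g14067) had 58 and 53 counts at stage 3 against 1 and 0 counts at early stage 5. Stage 3 exceeded early stage 5 by a ratio of 76.5, with 95% counting limits 13.4 and 3047 (edgeR adjusted p = 7.6e-05). Catenin delta-2 (g6704) had 279 and 454, then 325 and 267 CPM and was not called (log2 change -0.31 ± 0.27, edgeR adjusted p = 0.422). In motor proteins and tubulins 15 of 174 tested members were called higher (8.62%) and 17 lower (9.77%), shares near those of all gene models, and with library totals 5 and 28, where the median moved from 0.03 to -0.43. The actin severing protein cofilin (g25510) had 189 and 221, then 762 and 1260.5 CPM (log2 change 2.30 ± 0.30, edgeR adjusted p = 9.27e-05). Trafficking kinesin-binding protein 1 (g8844), an adaptor of mitochondrial transport, had 248 and 311, then 45.6 and 38.98 CPM (log2 change -2.72 ± 0.25, edgeR adjusted p = 6.43e-06).

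Among transport and lipid genes more falls than rises were called, beside 11.2% of all gene models called lower and 8.09% called higher. Of the solute carriers and transporters 2 of 191 tested members were called higher (1.05%) and 34 lower (17.8%) (7 and 39 with the female as a block), with a median of -0.57, or -0.47 with genes at 0 in one stage held at their bound. The organic cation transporter-like gene g2957 had 22.5 and 32.7 CPM at stage 3 against 0.286 and 0.448 CPM at early stage 5 (log2 change -6.22 ± 0.55, edgeR adjusted p = 5.28e-06). Its neighbour g2954 of the same description had 69.7 and 100.1, then 4.14 and 2.69 CPM (log2 change -4.59 ± 0.43, edgeR adjusted p = 7.27e-06), and reads may be shared between such copies. Solute carrier family 35 member F6 (g3412) and a trehalose transporter Tret1-like gene (g19974) were the members called higher, with log2 changes of 1.92 ± 0.38 (SE, edgeR adjusted p = 0.00191) and 1.40 ± 0.29 (SE, edgeR adjusted p = 0.00248), and both calls were lost with library totals (edgeR adjusted p = 0.0111 and 0.0209). Without the first early stage 5 or the second stage 3 library they were also lost (up to 0.0206 for g3412), and g19974 without any one library (up to 0.0223). In fatty acid and lipid handling 9 of 183 tested members were called higher (4.92%) and 29 lower (15.8%) (3 and 39 with library totals), with a median of -0.43 (-0.20 at the bound). A lipid storage droplet surface-binding protein 2 (g6127), a perilipin-type coat of lipid droplets, rose, with 1.10 and 1.51, then 19.9 and 15.2 CPM (log2 change 3.75 ± 0.49, edgeR adjusted p = 0.00014). Very-long-chain 3-oxoacyl-CoA reductase (g14346), an enzyme of fatty acid elongation, had 25.01 and 44.5, then 0.857 and 0.896 CPM (log2 change -5.28 ± 0.40, edgeR adjusted p = 1.66e-06). Cytochrome P450 302a1 (g25773), known in *Drosophila* from ecdysteroid synthesis, had 121 and 137, then 15.1 and 13.7 CPM (log2 change -3.16 ± 0.32, edgeR adjusted p = 1.17e-05). Of the P450s and conjugating enzymes 1 of 109 tested members was called higher (0.917%) and 6 lower (5.50%), both shares under those of all gene models, or 2 and 11 with the block and 1 and 12 with library totals, and the median was -0.85 (-0.31 at the bound). Of the lysosomal hydrolases 3 of 67 tested members were called higher (4.48%) and 6 lower (8.96%), or 7 and 9 with the block but 0 and 10 with library totals and on RPKM with either pseudocount, with a median of -0.05 (0.00 at the bound). Cathepsin L1 (g398), a lysosomal protease, had 133 and 121, then 263 and 263 CPM (log2 change 1.04 ± 0.25, edgeR adjusted p = 0.00713), and the call was lost without any one library (edgeR adjusted p 0.0255 to 0.0556). Called members without such a known role are a cytosolic peptidase (tripeptidyl-peptidase 2, g5800), mannosidases of the endoplasmic reticulum (g23802) and the Golgi (g7827 and g23969), and an inactive dipeptidyl peptidase (g6783). The calls of g5800 and g23802 were lost without 3 of the 4 single libraries, all but the first of stage 3 (up to 0.0704 and 0.0735). With library totals the edgeR adjusted p were 0.0869 for g398, 0.0461 for g5800 and 0.1 for g23802, so that these 3 rises were lost.

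Markers of differentiated and maternal tissues were followed as groups. Products of maternal tissue (venom, hemocyanin and vitellogenin genes) summed to 513 and 651, then 13.4 and 32.3 CPM. This sum was nearly that of their 1 called member of 13, which fell, with a median of -2.23 over the list (-1.55 at the bound, and 1 higher and 3 lower with the block). The member, a venom serine protease (g26402), had 501 and 614 CPM at stage 3 against 8.28 and 18.8 CPM at early stage 5 (log2 change -5.39 ± 0.36, edgeR adjusted p = 7.9e-07). Vitellogenin-6 (g8828), a yolk protein, had 3.69 and 20.7, then 0 and 1.57 CPM (log2 change -4.14 ± 1.28, edgeR adjusted p = 0.0252), and its change was called with the block (edgeR adjusted p = 0.000239). The muscle list summed to 196 and 257, then 405 and 355 CPM, and the neural list to 1332 and 1561, then 1539 and 1877 CPM. The muscle sums of the stages did not overlap, and the neural ones did. Among single gene models tested 66.8% did not overlap. A sum weighs abundant members most, and the muscle sum rose although the median of that list was negative. Of the muscle genes 1 of 24 tested members was called higher (4.17%) and 2 lower (8.33%), with a median of -0.33 (-0.12 at the bound). Of the neural genes 5 of 76 tested members were called higher (6.58%) and 10 lower (13.2%), with a median of -0.62 (3 and 12 called with library totals), and some of them act outside neurons too. Tropomyosin (g670), an actin-binding protein also found outside muscle, rose (log2 change 1.66 ± 0.24, edgeR adjusted p = 0.000225), whereas paramyosin models g16258 (log2 change -3.79 ± 0.48, edgeR adjusted p = 7.57e-05) and g19654 (log2 change -3.91 ± 0.55, edgeR adjusted p = 0.000163) fell. Syntaxin-1A (g574), of the membrane fusion machinery, had 1.99 and 1.21, then 41.3 and 38.5 CPM (log2 change 4.60 ± 0.48, edgeR adjusted p = 1.72e-05). Synaptotagmin-6-like (g25733) had 36.3 and 57.99, then 1.29 and 0.896 CPM (log2 change -5.37 ± 0.54, edgeR adjusted p = 1.17e-05). Of the cuticle and chitin genes 0 of 25 tested members were called higher and 1 lower (4%), also with DESeq2, and 1 and 1 had an unadjusted p under 0.05, with a median of -0.79. The part of these tissues in the other results was not tested.

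Most calls of the knockdown course were also made, in the same direction, in untreated embryos. In the untreated course 1117 gene models were called higher (7.7%) and 1539 lower (10.6%). Calls in both courses and the same direction numbered 691 higher genes, 58.9% of the knockdown list and 61.9% of the untreated list, and 1182 lower genes, 72.9% and 76.8%. In 12 genes the calls were opposite. Across the 9277 gene models with a mean of at least 5 CPM in the knockdown libraries the log2 changes of both courses correlated with r = 0.89. Over all 14498 gene models tested r was 0.69. The first value leaves out genes that stayed low in the knockdown, whatever their level in untreated embryos. The points are genes of libraries that come from the same females, so no test was made. Cytosolic ribosomal proteins were called higher in 71 and lower in 1 of 79 cases in the untreated course (median 2.09 against 2.71), and no member of this list was called for the difference.

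**Figure D4:**
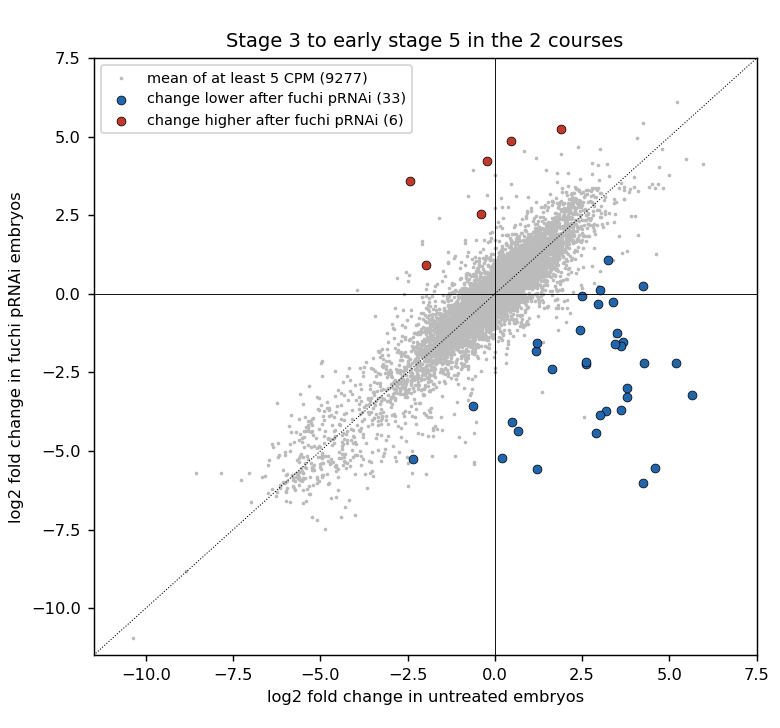
Log2 fold change of early stage 5 against stage 3 in *fuchi* pRNAi embryos (y axis) and in untreated embryos (x axis), 1 grey point per gene model with a mean of at least 5 CPM in the knockdown libraries, with the line of equal change dotted. Coloured points are the 39 gene models whose change differed between the courses, 33 below the line and 6 above it, at any level.

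A small set of genes did part ways. The difference of the 2 courses was called for 39 gene models (0.269%), lower after *fuchi* pRNAi for 33 (0.228%) and higher for 6 (0.0414%), while 1130 had an unadjusted p under 0.05. With the female as a block the counts were 88 and 11. The pRNAi eggs were also later eggs of each female, so that knockdown and time since the first sampling cannot be told apart here. Of the 33, the untreated course was called higher for 25 and the knockdown course lower for 19, and all 33 had both knockdown libraries of early stage 5 under both untreated ones (18.6% of all gene models tested), which the test itself favours. In 17 of the 33 both knockdown libraries of stage 2 were above both of stage 3, as they were in 32.4% of all gene models tested.

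Retinal dehydrogenase 1-like (g2991, scaffold 438, from 546180 to 593605 on the plus strand), named after an aldehyde dehydrogenase that makes retinoic acid in vertebrates, had 22.5 and 28.2 CPM at stage 3 against 1.57 and 1.34 CPM at early stage 5, where untreated embryos had 52.98 and 60.99, then 89.2 and 70.6 CPM. The difference of the log2 changes was -4.57 ± 0.38 (SE, edgeR adjusted p = 0.00031). The uncharacterized g2117 (scaffold 366, from 441334 to 455274 on the minus strand) had 20.03 and 48.6, then 2.14 and 3.14 CPM in the knockdown and 43.4 and 64.2, then 442 and 537 CPM in untreated embryos, a difference of -6.91 ± 0.60 (SE, edgeR adjusted p = 0.00031). A prolyl endopeptidase FAP-like protease (g4630) had 63.5 and 64.8, then 18.1 and 10.1 CPM, with an untreated course of 2.62 and a difference of -4.79 ± 0.45 (SE, edgeR adjusted p = 0.000442). The knockdown course was called lower for all 3, and the untreated course was called higher for g2117 and g4630 and not called for g2991.

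Among the other named genes of this set were several of glycan, lipid and membrane function. Glycoprotein 3-alpha-L-fucosyltransferase A (g15249), which adds fucose to glycans, had 25.6 and 48.1 CPM at stage 3 against 0.857 and 1.12 CPM at early stage 5 (difference -5.43 ± 0.54, edgeR adjusted p = 0.000603). Protein trapped in endoderm-1 (g18584), a receptor that *Drosophila* germ cells need to cross the midgut, had 5.18 and 11.5, then 2.43 and 0.896 CPM, while untreated embryos had 9.86 and 10.5, then 179 and 213 CPM (difference -6.47 ± 0.65, edgeR adjusted p = 0.000603). The large subunit of microsomal triglyceride transfer protein (g26038), which loads lipid onto lipoproteins, had 127 and 93 counts at stage 3 against 1 and 2 counts at early stage 5. The ratio of the stages was 50.5, with 95% counting limits 17.1 and 247 (difference -6.79 ± 0.70, edgeR adjusted p = 0.00071). A putative sodium-coupled neutral amino acid transporter (g18058) had 1.89 and 3.79, then 0.9998 and 0.672 CPM (difference -5.26 ± 0.57, edgeR adjusted p = 0.00104). A glutathione peroxidase-like gene (g20835), of a family that removes peroxides, had 141 and 159, then 13.7 and 11.6 CPM (difference -2.92 ± 0.33, edgeR adjusted p = 0.00132). A neurogenic locus delta-like gene (g12734) also belonged to the 33 and is named here after its values were seen. It had 19.3 and 22.3, then 22.4 and 11.6 CPM, and untreated embryos had 26.7 and 12.1, then 173 and 235 CPM (difference -3.65 ± 0.53, edgeR adjusted p = 0.00655).

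The 6 genes with the higher course in the knockdown included 3 with a described product. The triadin-like g6466 rose in both courses, to 32.6 and 20.9 CPM in untreated embryos, and the difference was 3.34 ± 0.47 (SE, edgeR adjusted p = 0.00555). Obstructor-E (g13591), a chitin-binding protein, had 3.79 and 2.42 CPM at stage 3 against 65.4 and 118 CPM at early stage 5 in the knockdown and 3.01 and 5.16, then 6.39 and 4.72 CPM in untreated embryos (difference 4.40 ± 0.67, edgeR adjusted p = 0.00829). Buccalin (g11206), named after a neuropeptide of molluscs, had 8.47 and 4.997, then 31.9 and 132.2 CPM, while untreated embryos, whose course was not called, went from 18.2 and 30.8 to 3.50 and 5.66 CPM (difference 6.01 ± 0.89, edgeR adjusted p = 0.00671). The uncharacterized g19865, g4051 and g26167 had differences of 2.97, 4.46 and 2.89 (edgeR adjusted p = 0.00829 for the first and 0.00856 for the others), and the knockdown course of the last was not called (log2 change 0.91 ± 0.31, edgeR adjusted p = 0.0408). At early stage 5 both knockdown libraries were above both untreated libraries in all 6, which the test itself favours, and in 22.01% of all gene models tested.

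Few of these calls held without single libraries. Of the 14 named, g2991, g2117, g4630, g15249 and g18584 stayed called without any one of the 8 libraries, with edgeR adjusted p of at most 0.00985. The transporter g18058 (up to 0.0118) and g20835 (up to 0.0167) were lost without the second early stage 5 knockdown library, and g26038 (up to 0.0136) without the first. Each of the 6 higher courses was lost without at least 7 of the 8 single libraries, with edgeR adjusted p up to 0.0897, and that of g12734 likewise (up to 0.0413).

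**Figure D5:**
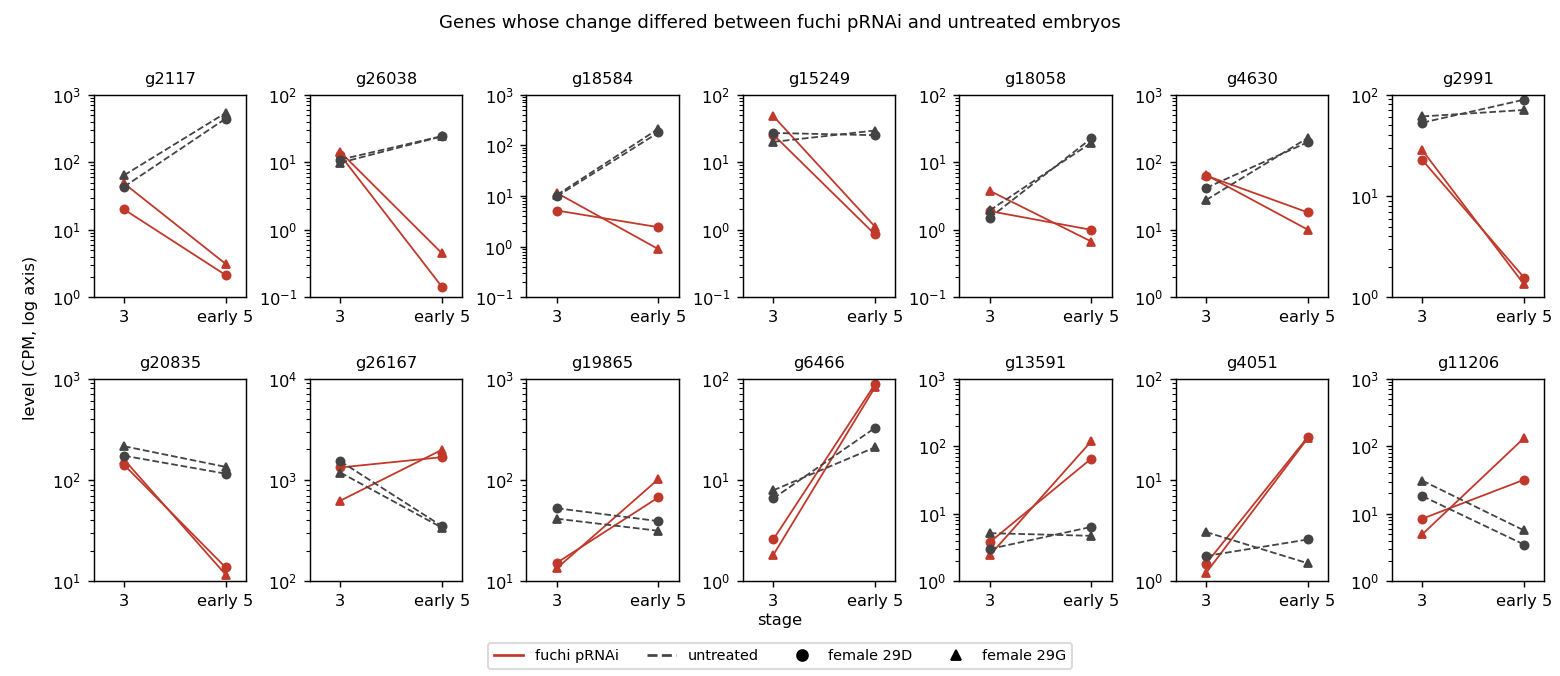
Level (y axis, CPM, log axis) at stage 3 and early stage 5 (x axis) of the 14 named genes whose change differed, in order of the difference. Red solid lines are *fuchi* pRNAi and grey dashed lines untreated embryos, circles are female 29D and triangles female 29G; in the first 8 panels the knockdown course is the lower one and in the last 6 the higher one.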

How the data were processed

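Poly(A) RNA of pooled whole embryos was made into directional libraries and sequenced single-end. The authors made the deposited counts with HTSeq (0.6.1p1), over 27990 gene models that AUGUSTUS predicted on assembly Ptep_1.0. Sources used here name neither the aligner of these reads nor the strand setting of the counting, so values of overlapping models are uncertain. The deposited RPKM values, which the authors scaled by library and model length, served only as an alternative. Gene names came from the deposited annotation, which pairs 18859 models with an NCBI gene.

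All 12 libraries were fitted in edgeR 4.0.16 (R 4.3.3) with 6 groups (female not in the model), TMM factors and the quasi-likelihood F test. Gene models reaching 1 CPM in any library entered (14498), and calls were made at a Benjamini-Hochberg adjusted p under 0.01. CPM values were TMM scaled. Alternatives were other library sets, a likelihood ratio test, a 2-fold minimum change, other factors, other filters, DESeq2 1.42.0, limma 3.58.1 on log2 RPKM and each library left out.

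Samples of a female share the mother, and their deviations from the group means correlated between stages (r = 0.311 in *fuchi* pRNAi and 0.471 in untreated embryos, 9710 gene models), so a fit with the female as a block was added.

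Named were *fuchi*, *catA*, the GATA and patterning genes. By smallest p, 14 described and 5 undescribed genes each way were added, as were 8 each way for the difference of courses. From each list of product descriptions came up to 3 called genes each way and the 2 uncalled genes with the highest level. Members and lists were chosen with earlier results of these data known. A list median leaves out genes without counts in the 4 libraries. A gene at 0 in one stage is set, at its bound, to 3 counts over both libraries of that stage.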

Additional observations from a re-analysis of the deposited data

Results flagged for a closer look

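These are named genes whose change from stage 3 to early stage 5 differed between *fuchi* pRNAi and untreated embryos by the edgeR test of the difference itself. The differences in log2 change, knockdown minus untreated, were negative for the retinal dehydrogenase 1-like gene g2991 (-4.57), the uncharacterized g2117 (-6.91), the prolyl endopeptidase FAP-like g4630 (-4.79) and the fucosyltransferase g15249 (-5.43). They were also negative for trapped in endoderm-1 (g18584, -6.47), the microsomal triglyceride transfer protein g26038 (-6.79), the amino acid transporter g18058 (-5.26) and the glutathione peroxidase-like g20835 (-2.92). Positive differences were those of triadin-like (g6466, 3.34), buccalin (g11206, 6.01), obstructor-E (g13591, 4.40), g19865 (2.97), g4051 (4.46) and g26167 (2.89). Every group of libraries held 2 females, too few for a search for single outlying libraries.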

How the results depend on the processing

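No call of a named gene changed direction under any alternative. The count of genes called higher and lower from stage 3 to early stage 5 (1173 and 1622) became 1027 and 1394 with the 4 libraries alone, 1628 and 2135 with the likelihood ratio test, 1654 and 1859 with DESeq2 and 319 and 806 with a minimum change of 2-fold. It was 1272 and 1550 with RLE factors, 522 and 2610 with library totals, 1521 and 2172 without the filter, 1194 and 1617 with the filter in 2 libraries, 607 and 2321 on log2(RPKM + 1) and 533 and 2526 on log2(RPKM + 0.1). With single libraries left out it was 423 to 797 and 895 to 1481. For the difference of courses (6 and 33) the counts were 3 and 34 with 8 libraries, 27 and 132 with the likelihood ratio test, 21 and 120 with DESeq2, 0 and 18 with the 2-fold minimum, 6 and 33 with RLE factors, 2 and 45 with library totals, 59 and 188 without the filter, 9 and 158 on log2(RPKM + 1) and 0 and 37 on log2(RPKM + 0.1). Single libraries left out gave 0 to 2 and 6 to 40. The cause of these shifts was not tested.

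With the female as a replicate block the counts were 1579 higher and 2035 lower for the course and 11 and 88 for the difference. With the block and only the libraries compared they were 2049 and 2410, and 87 and 202. The block kept 1172 of the 1173 and 1622 of the 1622 calls and all 39 differences, and it changed no other named call than those given in the text.

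Depth limits low genes. With 3 counts at 0.339 to 0.530 CPM by library total, before TMM scaling, genes such as *Pt-GATA4* could not be followed downwards. Having 2 females per group leaves few degrees of freedom. Pooled embryos hide differences between embryos and between cells. All calls are relative to the TMM centre, since total RNA per embryo was not measured.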

Other observations

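The groups in this paragraph were chosen after their values were seen, so their counts are descriptions only, with 8.09% of all gene models called higher and 11.2% called lower. Translation initiation, elongation and release factors, which start, extend and end protein chains, were called higher in 30 and lower in 1 of 56 tested models (median 1.42). The largest rise named here is that of initiation factor 5 (g7674, log2 change 2.43 ± 0.26, edgeR adjusted p = 1.9e-05), and elongation factor 1-alpha (g27264) had 1927 and 1772 CPM at stage 3 against 9659.8 and 9232 CPM at early stage 5 (log2 change 2.35 ± 0.26, edgeR adjusted p = 2.22e-05). The member that fell carries the description of a 4E-binding protein (g8534, log2 change -1.25 ± 0.27, edgeR adjusted p = 0.00366), a class of proteins that hold back the cap-binding factor. Its call was lost without either early stage 5 library or without the second stage 3 library (edgeR adjusted p 0.0212 to 0.0487). Among hnRNP and SR proteins, which package and splice new transcripts, 16 of 27 were called higher and 0 lower (20 and 2 at an unadjusted p under 0.05, 18 and 0 with DESeq2, 8 and 1 with library totals). The D-like hnRNP (g1657) had 3485 and 3146, then 13844 and 14650 CPM (log2 change 2.10 ± 0.21, edgeR adjusted p = 1.24e-05).

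The ABHD11 and tudor domain groups were also chosen after their values were seen, so their counts are descriptions only. They stand beside 11.2% of all gene models called lower and 8.09% called higher. Genes described as ABHD11 or ABHD11-like were called lower in 8 and higher in 0 of 23 tested models, by edgeR and by DESeq2 (10 and 0 at an unadjusted p under 0.05). They include the neighbours g9723, g9725, g9726, g9727, g9728 and g9729. Together the group took 0.652% and 0.779% of all counts at stage 3 and 0.0652% and 0.0460% at early stage 5. Reads may be shared among such copies. Tudor domain genes, known from *Drosophila* and vertebrates in germ cell RNA control, were called lower in 5 and higher in 0 of 8 models (6 and 0 with DESeq2 and at an unadjusted p under 0.05), led by tudor domain-containing protein 3-like (g22223, log2 change -2.42 ± 0.35, edgeR adjusted p = 0.000201).

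A few genes moved in opposite directions in the females by at least 2-fold each, 11 of the 9277 gene models with a mean of at least 5 CPM. Bone morphogenetic protein 1 (g5489), a protease that in other animals frees BMP signals, went from 86.6 to 205 CPM in 29D and from 50.4 to 4.03 CPM in 29G. GATA zinc finger domain-containing protein 7 (g18486) went from 10.07 to 0.714 CPM in 29D and from 7.42 to 16.8 CPM in 29G.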
